A study of Rattus norvegicus with 6 samples.

Results

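The 10 ADAMTS genes described here are Adamts1, Adamts2, Adamts4, Adamts5, Adamts6, Adamts7, Adamts9, Adamts10, Adamts12 and Adamts15. They were taken by name from a table of 20675 rat genes, which holds 19 ADAMTS genes in all. RNA sequencing was done on primary rat disc cells from the temporomandibular joint (TMJ), the jaw joint whose fibrous disc separates the moving bones. The treated group received GSK101, an agonist of the calcium-permeable channel TRPV4, for 24 h, and the control group received DMSO, the solvent, over the same 24 h. Each group had 3 libraries. The concentration of GSK101, the strain, age and sex of the rats and the passage of the cells are not given in the sources used here, nor is the origin of the replicates, so the p-values measure the spread between these libraries, which may be technical in part.

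ADAMTS proteases are secreted zinc metalloproteases that carry thrombospondin repeats, by which they bind the matrix around the cell. Some, the aggrecanases, cut the large proteoglycans aggrecan and versican, and loss of aggrecan is an early step of cartilage breakdown in joints. Others trim procollagens, cut cartilage oligomeric matrix protein (COMP) or act at fibrillin microfibrils. The activity of the aggrecanases ADAMTS4 and ADAMTS5 is held in check by the inhibitor TIMP3 and by uptake through the receptor LRP1, which also takes up TIMP3.

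Levels are given as RPKM, read numbers divided by gene length and library size. They can be compared between genes as far as the annotated gene lengths hold. The libraries held 43061102 to 45705238 counted reads. A gene was tested where 3 or more of the 6 libraries reached an RPKM of 0.5, and it was called at an adjusted p under 0.05 in limma with Benjamini-Hochberg adjustment over all 12801 tested genes. Of these, 20.1% were called higher and 11.9% lower with GSK101. Of all calls 62.9% were higher, against 72.4% after rescaling to TPM, 52.7% with median-ratio scaling and 48.1% with quantile normalization, and the median log2 fold change of all genes lay between -0.02 and 0.07 in these 4 scalings.

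Adamts5 rose with GSK101 and had the largest log2 fold change among the 9 genes tested, while its chromosomal neighbour Adamts1, the most abundant of them, fell. Adamts6 and Adamts12 rose with smaller log2 fold changes. Of the 9 members tested, 3 were called higher (33.3%, against 20.1% of all genes) and 1 lower (11.1%, against 11.9%), so the count of falls was near that of genes in general. Adamts2, Adamts4, Adamts7, Adamts9 and Adamts10 did not pass the test, and Adamts15 was below the filter. The groups did not overlap for the 4 genes called and overlapped for the other members tested. That is 44.4% of the members tested, near the 47.3% of all tested genes whose groups did not overlap. The median log2 fold change of the 9 genes was 0.01, beside 0.03 over all tested genes.

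**Figure D1:**
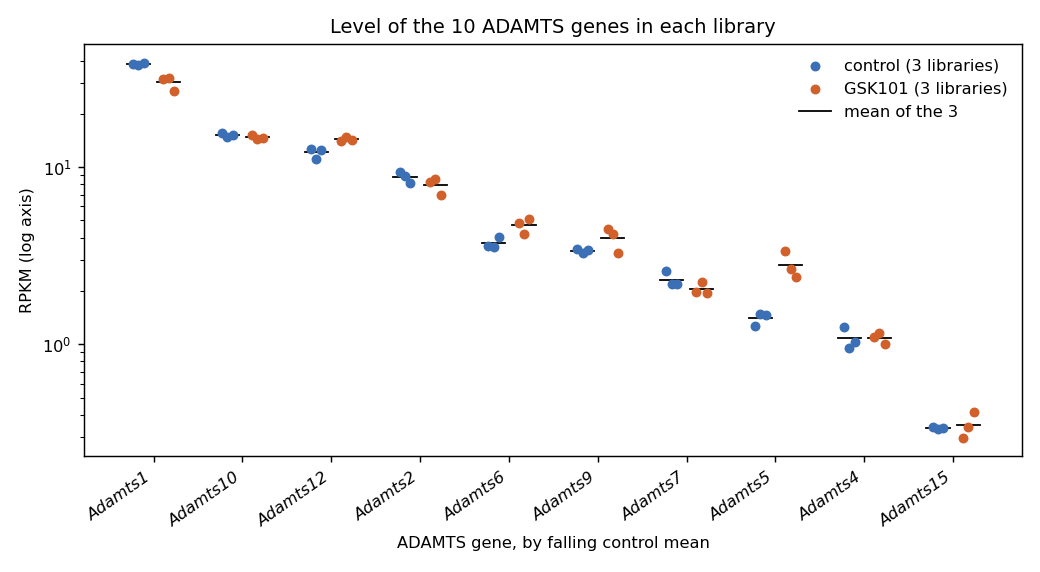
RPKM of the 10 ADAMTS genes on a log axis, ordered by their control mean, with 1 point per library (blue: control, orange: GSK101) and a line at the mean of 3. Adamts5 lies at 1.27 to 1.49 in the controls and at 2.41 to 3.35 with GSK101, whereas Adamts1 lies at 38.0 to 38.9 and at 26.9 to 31.8.

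The transcript levels spanned a wide range. In the controls, Adamts1 was highest with 38.3 ± 0.52 RPKM (SD, n = 3), followed by Adamts10, Adamts12, Adamts2, Adamts6, Adamts9, Adamts7, Adamts5, Adamts4 and Adamts15, the last with 0.335 ± 0.005. No neighbours in this order had overlapping control values. With GSK101 the order was the same except that Adamts5 came before Adamts7, and 3 pairs of neighbours overlapped. These were Adamts10 with Adamts12, Adamts6 with Adamts9 and Adamts9 with Adamts5. The summed RPKM of the 10 genes was 88.2, 84.7 and 87.3 in the control libraries and 85.3, 84.4 and 77.0 in the GSK101 libraries (p = 0.2 in an exact two-sided permutation test, whose smallest possible p is 0.1 here).

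Among the aggrecanase genes, Adamts5, which encodes the main aggrecanase of mouse cartilage, rose. Its RPKM was 1.27, 1.49 and 1.46 in the control libraries and 3.35, 2.67 and 2.41 with GSK101. Each GSK101 library was above each control library, and GSK101 replicate 1 stood above the other treated libraries. The control mean was 1.404 ± 0.12 and the treated mean 2.81 ± 0.48 (SD, n = 3), or 2.00-fold higher. On the log2 scale the change was 0.79 (SE 0.12) with an adjusted p of 0.00232 in limma. The pseudocount of 0.5 makes the log2 value smaller than the ratio. These values rest on 184 to 474 reads per library. In bulk RNA a change in the RNA of each cell and a change in the share of cells that express a gene cannot be told apart.

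Adamts1 encodes a protease that cuts versican and, more weakly, aggrecan. Its RPKM was 38.1, 38.0 and 38.9 in the controls and 31.7, 31.8 and 26.9 with GSK101, on 5090 to 7653 reads. Every treated library was below every control, and GSK101 replicate 3 was the lowest. The log2 fold change was -0.35 (SE 0.07, adjusted p = 0.00691), a 1.27-fold lower mean.

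Adamts4, the other principal aggrecanase of cartilage, stayed near 1 RPKM. Its values were 1.25, 0.956 and 1.02 in the controls and 1.10, 1.16 and 0.997 with GSK101, so the treated values lay within the control range. The log2 fold change was 0.01 with a 95% interval from -0.24 to 0.26, and its sign changed between alternatives (-0.05 to 0.09). The interval does not reach the change of Adamts5.

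Adamts9, a protease of versican and aggrecan, had 3.46, 3.26 and 3.40 RPKM in the controls and 4.48, 4.20 and 3.28 with GSK101. The first 2 GSK101 libraries lay above the controls and the third within their range. The log2 fold change of 0.20 did not pass (95% interval -0.04 to 0.45, adjusted p = 0.184). Without GSK101 replicate 3 it was 0.32 and passed (adjusted p = 0.0224, with 0.0224 to 0.461 over all 17 alternatives).

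Adamts15, which also encodes a protease of versican and aggrecan, was scarce. It had 0.339, 0.330 and 0.336 RPKM in the controls and 0.296, 0.342 and 0.414 with GSK101, on 80 to 108 reads per library. The treated libraries lay on both sides of the controls (exact two-sided permutation p = 0.7).

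The makeup of the transcripts of the aggrecanase members differed between the groups. Over Adamts1, Adamts4, Adamts5, Adamts9 and Adamts15 the summed RPKM was 44.4, 44.0 and 45.1 in the controls and 40.9, 40.2 and 34.0 with GSK101. This sum leaves out Adamts8, an aggrecanase gene outside the members, at 1.87 to 2.56 RPKM in the controls and 1.68 to 2.40 with GSK101. Adamts5 made up 2.85, 3.38 and 3.23% of this sum in the controls and 8.18, 6.64 and 7.10% with GSK101. Adamts1 made up 86.1 ± 0.28% and 78.6 ± 0.97% (SD, n = 3), so it remained the most abundant in every library. The ratio of Adamts5 to Adamts4 was 1.01, 1.56 and 1.42 in the controls and 3.04, 2.300 and 2.42 with GSK101. For each of these 4 quantities the groups did not overlap, and the exact two-sided permutation p was 0.1, the smallest that 3 against 3 libraries can give. For the percent of Adamts5 this was fixed, because the groups of Adamts5 and of the sum were apart in opposite directions.

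Of the genes that encode COMP-cutting proteases, Adamts12 rose and Adamts7 did not pass. Adamts12 had 12.6, 11.2 and 12.6 RPKM in the controls and 14.2, 14.9 and 14.3 with GSK101. All treated libraries were above all controls. The log2 fold change was 0.25 (SE 0.06, adjusted p = 0.0172), smaller than that of Adamts5. It lost its call without GSK101 replicate 2 (adjusted p = 0.0626) and with quantile normalization (adjusted p = 0.0634), within a range of 0.00209 to 0.0634 over the alternatives. Adamts7 had 2.58, 2.18 and 2.18 RPKM in the controls and 1.98, 2.24 and 1.96 with GSK101. GSK101 replicate 2 lay within the control range, and the log2 fold change of -0.14 had a 95% interval from -0.35 to 0.08. Transcripts of Comp itself, the substrate, were at 0.210 to 0.695 RPKM, in overlapping groups and below the filter.

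Adamts6 and Adamts10 encode related proteases that act at fibrillin microfibrils. Adamts6 rose from 3.59, 3.55 and 4.01 RPKM in the controls to 4.85, 4.17 and 5.12 with GSK101. The groups did not overlap, but GSK101 replicate 2 was close to control replicate 3. The log2 fold change was 0.30 (SE 0.09, adjusted p = 0.0328). The call did not hold without control replicate 1 or 2 or GSK101 replicate 1 or 3, with adjusted p of 0.0841, 0.0946, 0.0991 and 0.0981 in that order. It was also lost with median-ratio scaling (0.0515), quantile normalization (0.0918) and no filter (0.0735), and the adjusted p ran from 0.0076 to 0.0991 over the alternatives. Adamts10, the second most abundant member, had 15.7, 14.9 and 15.2 RPKM in the controls and 15.2, 14.4 and 14.7 with GSK101. Its groups overlapped, and the 95% interval of its log2 fold change of -0.05 ran from -0.16 to 0.06.

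Adamts2 encodes the main procollagen N-proteinase, which removes the amino-terminal propeptide of fibrillar collagens. Its RPKM was 9.36, 8.94 and 8.17 in the controls and 8.21, 8.58 and 7.004 with GSK101. Only GSK101 replicate 3 fell outside the control range. The log2 fold change of -0.15 had a 95% interval from -0.35 to 0.05 and did not pass (adjusted p = 0.229).

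**Figure D2:**
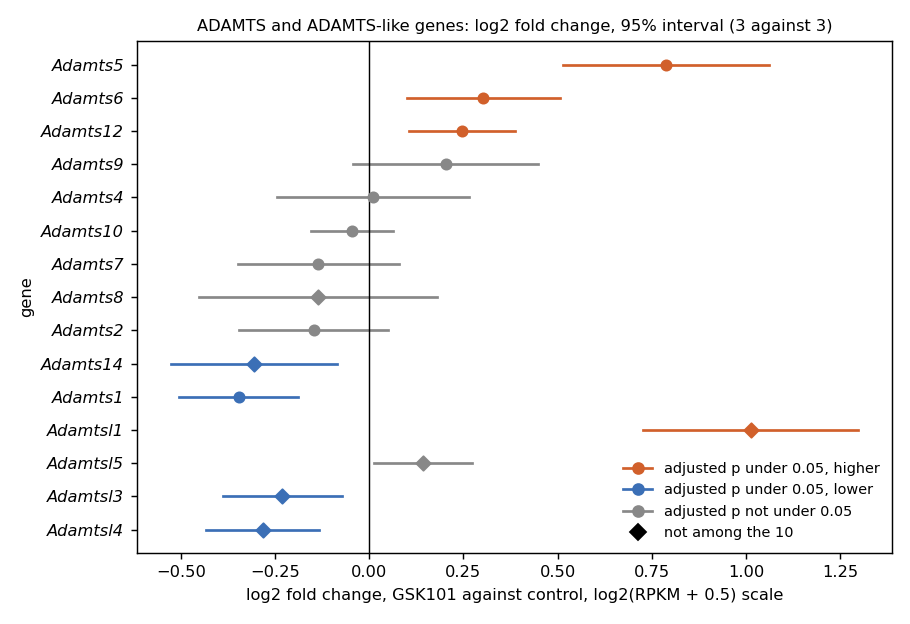
Log2 fold changes on the log2(RPKM + 0.5) scale with 95% intervals from limma (3 against 3 libraries) for the tested ADAMTS and ADAMTS-like genes, coloured by call, with diamonds for genes outside the 10. Adamts5 at 0.79 and Adamtsl1 at 1.01 lie farthest to the right, and Adamts1 at -0.35 farthest to the left.

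Of the 9 other ADAMTS genes in the table, Adamts8 and Adamts14 were high enough to test. Adamts14, a second procollagen N-proteinase, fell from 1.50, 1.38 and 1.38 RPKM to 0.991, 1.18 and 1.01 (log2 fold change -0.30, SE 0.10, adjusted p = 0.043). That call did not hold when any 1 of the 6 libraries was left out, with adjusted p of 0.051 to 0.127. It was also lost after rescaling to TPM (0.0712), and held in 8 of 17 alternatives. Adamts8, a weak aggrecanase, did not pass, at 1.87 to 2.56 RPKM in control and 1.68 to 2.40 in treated libraries. The ADAMTS-like proteins share the thrombospondin repeats but have no protease domain. Adamtsl1, which encodes punctin, rose from 1.24, 1.19 and 1.23 to 3.41, 3.23 and 2.37 RPKM, a mean 2.46 times as high (adjusted p = 0.000995). Adamtsl4, which encodes a fibrillin-binding protein, fell by 0.28 on the log2 scale (adjusted p = 0.0132). Adamtsl3 fell by 0.23 (adjusted p = 0.0357), with no call without control replicate 1, 2 or 3 or GSK101 replicate 1 or 3 (0.0651 to 0.0956). Rescaling to TPM also removed this call (0.0777), which held in 8 of 17 alternatives. Adamtsl5 did not pass, and its exons overlap those of an unnamed gene on the opposite strand. No exon of the 10 members overlaps another gene of the table.

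On the Rnor_6.0 build used by the table, Adamts1 (chr11:25342126-25350974) and Adamts5 (chr11:25410975-25456836) lie on the minus strand of chromosome 11, 60000 bases apart with no other gene of the table between them. The calls for these neighbours were in opposite directions. Adamts15 (chr8:31977001-32000378) lies 18181 bases from Adamts8, which is on the opposite strand. Adamts6 (chr2:34374158-34586755) and Adamts12 (chr2:61039053-61340697), which both rose, lie far apart on chromosome 2. Adamts2 is on chromosome 10, Adamts4 on 13, Adamts7 on 8, Adamts9 on 4 and Adamts10 on 7.

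The promoter sequences below belong to the called members for which RefSeq gave one. They are shown so that the genes that rose (Adamts6, Adamts12) can be set beside the gene that fell (Adamts1). Each is the 250 bases before the annotated start on the GRCr8 build, 5′ to 3′ on the gene's strand. They lie at chr11:38427385-38427634 (minus strand), chr2:37155038-37155287 (plus) and chr2:61759737-61759986 (plus), and capitals mark a match to a searched motif.
Adamts1: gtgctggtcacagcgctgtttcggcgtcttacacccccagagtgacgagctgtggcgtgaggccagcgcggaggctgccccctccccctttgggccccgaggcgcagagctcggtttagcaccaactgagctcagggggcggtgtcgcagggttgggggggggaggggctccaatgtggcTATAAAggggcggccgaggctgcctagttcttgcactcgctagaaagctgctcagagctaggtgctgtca
Adamts6: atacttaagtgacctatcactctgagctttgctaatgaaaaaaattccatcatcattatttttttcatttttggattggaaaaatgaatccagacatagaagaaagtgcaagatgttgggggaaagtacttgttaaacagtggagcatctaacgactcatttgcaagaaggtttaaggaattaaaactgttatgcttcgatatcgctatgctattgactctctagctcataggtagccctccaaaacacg
Adamts12: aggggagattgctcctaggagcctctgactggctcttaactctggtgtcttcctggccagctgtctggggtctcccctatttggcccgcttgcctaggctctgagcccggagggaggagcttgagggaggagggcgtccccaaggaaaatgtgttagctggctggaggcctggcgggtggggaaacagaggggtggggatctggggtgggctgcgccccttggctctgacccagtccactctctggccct
The motifs were searched on both strands in the promoters of the 8 members matched by symbol, which excluded Adamts5 and Adamts15. They were AP-1 (TGANTCA, which c-Fos and its partners bind), CRE (TGACGTCA), RUNX (TGTGGT) and the TATA box (TATAAA), and no 2 matches overlapped. The TATA box was found in Adamts1, starting 70 bases before the start, and on the opposite strand in Adamts7 and Adamts10. Of all 27457 promoters of this length, 13.1% held it. AP-1, CRE and RUNX were found in none of the 8, and in 6.36%, 1.70% and 14.1% of all promoters. The promoters of Adamts1 and Adamts12 are rich in G and C (65.2% and 63.6%) and that of Adamts6 is not (36.0%). A match, or its absence, describes only the letters of these windows.

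A list of metalloprotease inhibitors and clearance genes changed in both directions. Of its 5 tested genes 2 rose and 2 fell (median log2 change 0.08). That is 40.0% each, against 20.1% and 11.9% of all tested genes. The count includes Timp1 and Timp2, which are not taken here as inhibitors of aggrecanases. Timp3, the inhibitor of aggrecanases, had 30.8, 27.1 and 28.9 RPKM in the controls and 21.9, 20.7 and 20.2 with GSK101. All treated libraries were below all controls, and the log2 fold change was -0.46 (SE 0.06, adjusted p = 0.0013). The ratio of Adamts5 to Timp3 transcripts was 0.0411, 0.0548 and 0.0505 in the controls and 0.152, 0.129 and 0.119 with GSK101, a 2.74-fold higher mean. Its groups could not overlap, because those of Adamts5 and of Timp3 were already apart in opposite directions. The exact two-sided permutation p of 0.1, the smallest possible, was thereby fixed and adds no result to those of the single genes. Lrp1, which encodes the receptor that takes up ADAMTS4, ADAMTS5 and TIMP3, rose from 24.6, 20.4 and 22.6 to 36.8, 34.8 and 27.7 RPKM (log2 fold change 0.54, SE 0.11, adjusted p = 0.00875). Timp2 fell by 0.27 on the log2 scale (adjusted p = 0.00399). Timp1, at 1334 to 1669 RPKM, rose by 0.19 (adjusted p = 0.0297). It had no call without control replicate 1, 2 or 3 or GSK101 replicate 1 or 3 (0.0516 to 0.111). The call was also lost with median-ratio scaling (0.0607), and held in 9 of 17 alternatives.

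**Figure D3:**
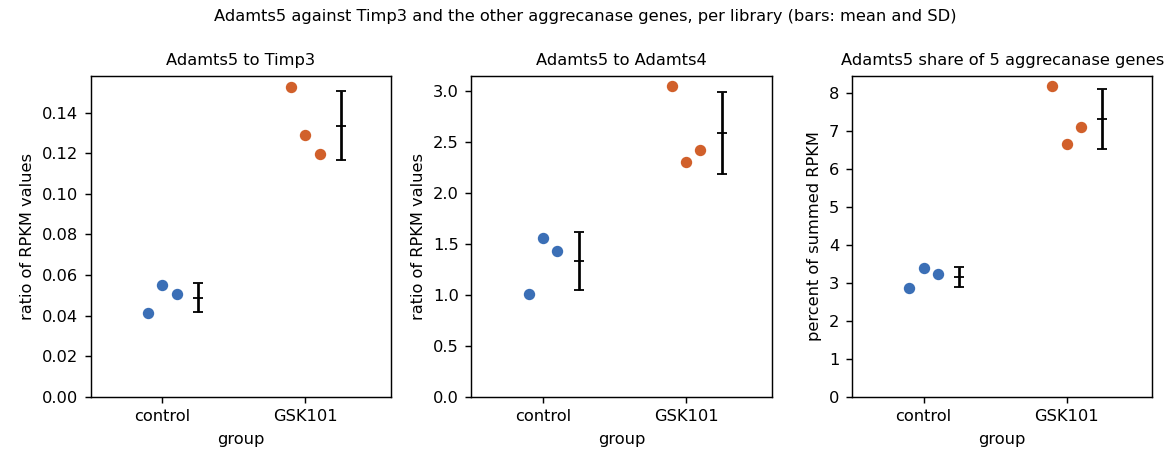
Adamts5 to Timp3 (ratio of RPKM), Adamts5 to Adamts4 (ratio of RPKM) and the percent of Adamts5 in the summed RPKM of 5 aggrecanase genes, with 1 point per library and the mean with its SD beside them (n = 3). In all 3 panels the GSK101 libraries lie above the control libraries, for example at 0.119 to 0.152 against 0.0411 to 0.0548 for Timp3.

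Genes for maturation and surface binding of the proteases also moved in both directions. ADAMTS proteases are made as inactive precursors, cut by proprotein convertases, and their thrombospondin repeats are fucosylated by POFUT2. Of 7 tested genes 2 rose and 3 fell (median log2 change -0.04). That is 28.6% and 42.9%, against 20.1% and 11.9% of all tested genes. Sdc4, which encodes syndecan 4, a surface proteoglycan tied to ADAMTS5 activation, rose from 45.6, 41.6 and 38.6 to 85.1, 83.7 and 78.4 RPKM (log2 fold change 0.97, adjusted p = 0.00011). The convertase gene Pcsk5 fell from 3.85, 3.89 and 4.31 to 1.64, 2.08 and 1.83 RPKM, by 0.94 on the log2 scale (adjusted p = 0.000405). Pcsk7 rose by 0.32 (adjusted p = 0.00283) and Pofut2 fell by 0.35 (adjusted p = 0.0042). Pcsk6, another convertase gene, fell by 0.44 (adjusted p = 0.0107) and kept its call in all 17 alternatives. Furin, the classical ADAMTS convertase, did not pass, with a log2 fold change of 0.09.

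Every tested substrate gene had a log2 fold change smaller in size than that of Adamts5. Acan, which encodes aggrecan, had 37.6, 33.5 and 29.8 RPKM in the controls and 31.7, 32.8 and 31.2 with GSK101. The treated values lay within the control range, and the 95% interval of the log2 fold change of -0.07 ran from -0.25 to 0.11. Vcan, which encodes versican, lay between 19.7 and 21.7 RPKM in the controls and between 22.2 and 23.3 with GSK101, without overlap, but did not pass (adjusted p = 0.0923). Of 6 tested proteoglycan and link protein genes 1 rose and 1 fell, with a median of 0.06. That is 16.7% each, against 20.1% and 11.9% of all tested genes. Bgn, which encodes biglycan, fell by 0.40 on the log2 scale (adjusted p = 0.00207). Dcn, which encodes decorin, rose by 0.41 (adjusted p = 0.0417). It had no call without control replicate 1, 2 or 3 or GSK101 replicate 1 or 2 (0.0835 to 0.1). The call was also lost with median-ratio scaling (0.0527) and quantile normalization (0.0581), and held in 7 of 17 alternatives. None of 4 tested fibrillar procollagen genes was called (all tested genes: 20.1% higher, 11.9% lower), with a median of -0.12. The highest were Col3a1 at 2937 to 3780 RPKM and Col1a1 at 1490 to 2028, and Col1a1 was lower without control replicate 3 or GSK101 replicate 2 (adjusted p = 0.042 and 0.0434, range 0.0133 to 0.27). Of 4 other matrix genes Fn1, which encodes fibronectin, was called higher (0.30, adjusted p = 0.04). It had no call without control replicate 2 or 3 or GSK101 replicate 1 or 2 (0.112 to 0.127). The call was also lost with median-ratio scaling (0.06), and held in 10 of 17 alternatives. Thbs1, which encodes thrombospondin 1, did not pass (-0.21, adjusted p = 0.0636) except, among fits that left out a library, without control replicate 2 (0.0313, range 0.0141 to 0.189).

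Of 10 tested cytokines, receptors and transcription factors known to act on aggrecanase transcripts in joint cells, 4 rose and none fell. The share that rose was 40.0%, against 20.1% of all tested genes, of which 11.9% were lower. The median log2 fold change of the list was 0.17, and the list was not tested as a set. Il6 rose from 4.51 to 8.03 RPKM (adjusted p = 0.00297), Il1r1, the interleukin 1 receptor gene, by 0.49 on the log2 scale (adjusted p = 0.00202) and Hif1a, a hypoxia factor, by 0.48 (adjusted p = 0.00168). Nfat5, the osmotic stress factor, rose by 0.26 (adjusted p = 0.0298), with no call without control replicate 1 or 2 or GSK101 replicate 1 or 2 (0.0755 to 0.0948). Quantile normalization also removed this call (0.108), which held in 10 of 17 alternatives. Il1a, Il1b and Osm, which encode classical inducers of aggrecanases, stayed at or under 0.158 RPKM in all libraries. Runx2, a factor of skeletal cells, did not pass, with a log2 fold change of 0.21.

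**Figure D4:**
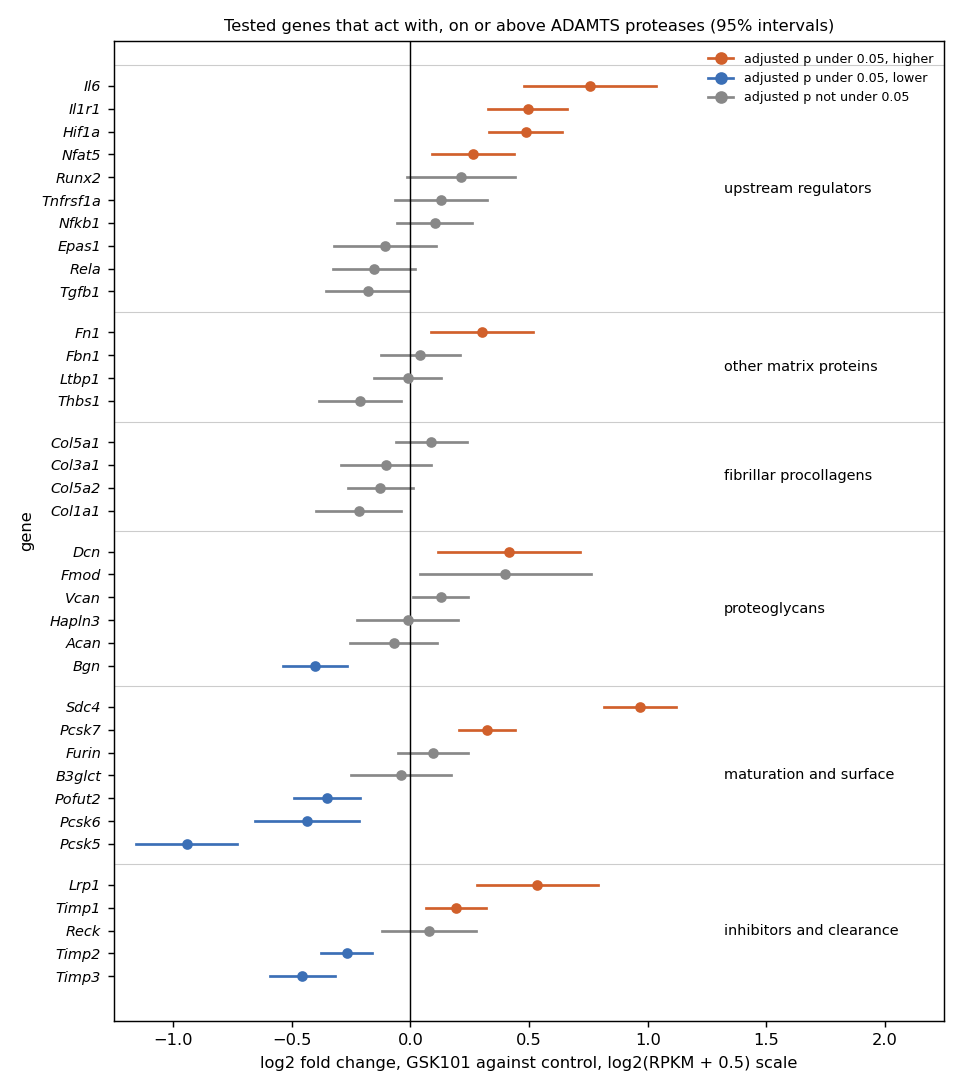
Log2 fold changes with 95% intervals from limma (3 against 3 libraries) for the tested genes of 6 lists drawn up around ADAMTS proteases. The scale is log2(RPKM + 0.5), and genes are coloured by call. Sdc4 at 0.97 and Pcsk5 at -0.94 lie farthest from 0, and Acan, Furin and Fbn1 have intervals that include 0.

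Genes named by a clone, locus or microRNA identifier were left out of a search for similar patterns. Among the rest, the genes most like Adamts5 over the 6 libraries were Shoc2, Taf5 and Pcna. Their Pearson correlations of log2(RPKM + 0.5) were 0.9984, 0.9967 and 0.9945. Those most like Adamts1 were Jazf1, Serinc3 and Cdipt, with 0.9966, 0.9942 and 0.9939. These are descriptions over 6 points that share 2 groups, picked from 12801 tested genes less those left out. They say nothing of how the genes are controlled.

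Fibroblast markers were abundant in the cells, and most chondrocyte markers were scarce. All 7 fibroblast markers analysed passed the filter, with summed levels of 7421 to 8388 RPKM in the controls and 6714 to 7931 with GSK101. Of these 4 rose (Lum by 0.54, Pdgfra by 0.43, Dcn by 0.41 and Fn1 by 0.30 on the log2 scale), and Thy1 fell by 0.23. That is 57.1% and 14.3%, against 20.1% and 11.9% of all tested genes. Lum lost its call without control replicate 3 or GSK101 replicate 2 (adjusted p up to 0.054), and Thy1 with quantile normalization (0.0831). Among 7 chondrocyte markers 5 were under 1 RPKM in every library, with Col2a1 at 0.039 or less, while Acan and Sox9 were present. Leukocyte markers summed to 59.4 to 76.3 RPKM in the controls and 59.2 to 79.6 with GSK101, mostly Lyz2, with 5 of 7 under 1 RPKM. Endothelial markers summed to 1.30 or less, of which Kdr was the 1 gene tested and rose. Smooth muscle and pericyte markers fell in 5 of 5 tested genes (100%, against 11.9% of all tested genes). Their summed levels, mostly Acta2, went from 5538 to 5760 down to 3076 to 3356. Of these genes, Pdgfrb kept its call in 13 of 17 alternatives (adjusted p up to 0.0658). Of 3 tested skeletal muscle markers 2, Acta1 and Myh3, fell (66.7%, against 11.9% of all tested genes). Des did not pass, with a log2 fold change of 0.26. The sums of all 6, mostly Acta1, went from 13.3 to 14.5 down to 8.42 to 9.26. In every library 5 of the 6 were under 1 RPKM. Synovial lining markers rose from sums of 8.999 to 13.5 up to 20.5 to 39.0 through Prg4, the 1 gene tested of 4. The part of these shifts in the changes of Adamts5, Adamts1, Adamts6 and Adamts12 was not tested.

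**Figure D5:**
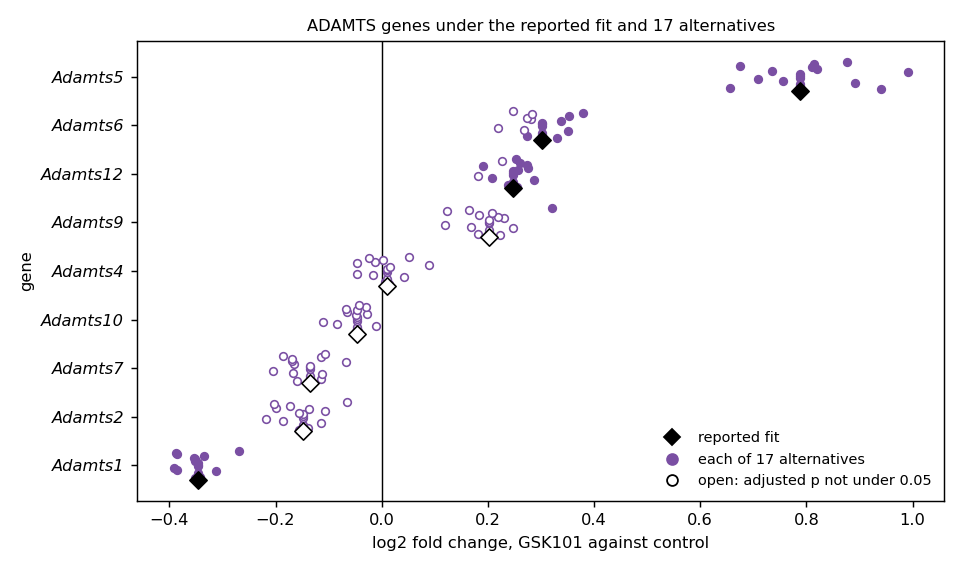
Log2 fold changes of the 9 tested ADAMTS genes under the reported fit (diamonds) and 17 alternatives (circles), filled where the adjusted p was under 0.05. Adamts5 (0.66 to 0.99) and Adamts1 (-0.39 to -0.27) are filled throughout, Adamts12 in 15 and Adamts6 in 10 of the alternatives.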

How the data were processed

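The authors deposited 1 table of RPKM values for 6 libraries, with exon positions and gene lengths. The submitters' processing notes list, with no role or order, edgeR 3.12.1, STAR 2.5.3a, Trimmomatic 0.36, Subread 1.5.1, featureCounts and the genome build Rnor_6.0. Per the labels' protocols, libraries were stranded, made from polyadenylated RNA and tagged with molecular identifiers of 8 bases. Whether those were collapsed, or strand used in counting, is not stated in the sources.

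RPKM times length gave whole multiples of 1 step in each library, to within 0.01 of a read, for 100% of values, and these multiples were taken as reads. Even numbers made up 71.3 to 74.7% of the values from 1 to 10 reads, so each mate may have counted as a read. The test was limma 3.58.1 (R 4.3.3) on log2(RPKM + 0.5) with a mean-variance trend and group as the only term. It was also run on simulated data, in which the changes made were 0.5 or 1 in size on the log2 scale. That run does not cover changes as small as those of Adamts1, Adamts6 and Adamts12. Exact permutation tests used SciPy 1.17.1. As alternatives, 2 pseudocounts, 2 filters, 3 scalings, 2 variance models, limma-voom on the recovered reads, the replicate number as a term and each left-out library were run. limma-voom called 2946 genes higher and 1644 lower.

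The members and lists were chosen with earlier results of these data known. Every member is named. Of the lists, up to 4 called genes with the smallest adjusted p are named, or the 2 most abundant where fewer than 2 were called. Also named are Acan, Vcan, Comp, Timp3 and Lrp1, and tested ADAMTS genes. So are the 3 genes most correlated with Adamts5 and with Adamts1, outside clone, locus and microRNA identifiers. Adamtsl5, Furin, Pcsk6, Fbn1, Runx2, Il1a, Il1b, Osm and the markers were named after their values were seen. Thsd4, Col1a2, Tnf, Snorc, Itgam and Pecam1 were not analysed here. Promoters are from RefSeq (GRCr8), 1 per gene, matched by symbol.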

Additional observations from a re-analysis of the deposited data

How the results depend on the processing

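The count of members called higher was 3 (33.3% of those tested, against 20.1% of all genes). It was 1, Adamts5, with quantile normalization, and 2 or 3 in the 16 other alternatives. Of 12801 tested genes 2570 were called higher in the reported fit and 1983 with quantile normalization. When a library was left out, 1835 to 2295 were. Adamts5 was called in every alternative, but the other members varied. They were Adamts6 without GSK101 replicate 2, and Adamts12 and Adamts9 without GSK101 replicate 3. Adamts1 was the 1 member called lower in the reported fit (11.1%, against 11.9% of all genes) and in all 17 alternatives. With the replicate number as a replicate block the members called were 3 higher and 1 lower, and all genes 2508 higher and 1437 lower, beside 2570 and 1518. No pairing by number was seen: deviations of same-numbered libraries from their group means correlated by 0.054, -0.063 and 0.052. Control replicate 1 correlated best with GSK101 replicate 2 (0.107). Whether same-numbered libraries share a culture or animal cannot be told from these correlations. With the replicate block Adamts14, Adamtsl3 and Nfat5 lost their calls (adjusted p = 0.0811, 0.0599 and 0.0599) and Col1a1 gained one (0.032). Of the 9 tested members and 26 tested genes named from the related lists, none that was called changed sign under these alternatives. The difference of the group means of the Adamts5 to Timp3 ratio, 0.0848, ran from 0.0753 to 0.0919 when a library was left out. That of the percent of Adamts5 among transcripts of the aggrecanase members, 4.15, ran from 3.71 to 4.48. With 3 libraries a group, exact permutation tests allow no p under 0.1. The cause of calls that changed was not tested.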
